A study of Mus musculus with 6 samples.

Results

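Amino acid transporters were described in the RNA of VEC-positive and VEC-null mouse endothelial cells. Members were chosen by name, as protein-coding mouse genes of the solute carrier families Slc1, Slc3, Slc6, Slc7, Slc36, Slc38 and Slc43. Earlier results of these data were known when these families were chosen. GENCODE M21 holds 64 such genes, and 41 of them were among the 24080 genes of the table. Of these 41 genes, 28 had a normalized count (reads divided by 1 size factor per library) of at least 10 in at least 3 libraries and were tested. The other 13 were below that level, with no value above 11.0. A further 23 genes of these families were not analysed here. Names do not make a carrier of amino acids in every case, since *Slc6a8* carries creatine, *Slc6a2* carries noradrenaline, *Slc43a3* carries nucleobases and *Slc7a6os* is only the neighbour of *Slc7a6* on the opposite strand.

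VEC-positive cells are VEC-null cells that received wild-type *VEC* by retroviral transfer. VEC-null cells are endothelial cells that were derived in culture from mouse embryonic stem cells with both copies of the *VEC* gene mutated, so both groups share this mutation and the line of origin. VEC, vascular endothelial cadherin, is the adhesion protein of endothelial junctions. A stranded kit made 3 total RNA libraries of each group, and the labels name no other treatment. The sources used here do not describe the promoter of the retroviral vector or the null allele. The comparison asks which transporter RNAs differ between cells with and without transferred VEC. A line set against the same line after reconstitution does not separate VEC from other differences between the lines, and the p-values measure the spread between libraries.

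Libraries held 9598590 to 14136376 reads in VEC-positive cells and 6036155 to 11670273 reads in VEC-null cells. *Cdh5*, which encodes VEC (chromosome 8 of mm10, 104101625 to 104144511), ran against the labels, with normalized counts of 794, 739 and 750 in the libraries labelled VEC-positive, against 1334, 1439 and 1689 in the libraries labelled VEC-null. Which exons these reads cover cannot be seen from gene counts, and all directions here are by label. Library VEC-null 3 stood apart: its reads differed from those of VEC-null 1 and 2 by a chi-square of 50.5 and 48.6 for each gene, while VEC-null 1 and 2 differed by 6.57 and the VEC-positive libraries by 11.8 to 18.4. Mitochondrial genes took 18.0% to 24.2% of reads in VEC-positive libraries and 9.62% to 14.9% in VEC-null libraries. Of 10 endothelial markers all were measured and 8 were higher in VEC-positive cells, with a summed normalized count of 66490 to 68468, against 45277 to 47655 in VEC-null cells. Among them *Cldn5*, which encodes a protein of endothelial tight junctions, had 429, 512 and 434 in VEC-positive libraries and 9.18, 5.51 and 4.43 in VEC-null libraries. Of 8 mural and fibroblast markers 7 were measured, with a sum of 175 to 191 in VEC-positive libraries and 61.4 to 78.0 in VEC-null libraries, and 1 of the 3 tested was higher (*Pdgfrb*). Summed blood markers were 143 to 199 in VEC-positive libraries and 129 to 436 in VEC-null libraries, with *Adgre1* and *Hbb-bs* not analysed. Pluripotency markers summed to at most 11.3 in VEC-positive libraries and 9.18 in VEC-null libraries. The part of these markers in the results was not tested. In bulk RNA, fewer cells of a type and less RNA per cell cannot be told apart.

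Amino acids do not cross membranes unaided, and carriers of the solute carrier families move them. Some take up amino acids with sodium or protons, others exchange one amino acid for another, and the light chains of the Slc7 family reach the plasma membrane as pairs with the heavy chain Slc3a2. Endothelial cells take up glutamine as fuel, arginine for nitric oxide synthesis, and cystine for glutathione. Lysosomal members release amino acids from digested protein and report their level to mTORC1, the kinase complex that sets growth to nutrient supply.

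Of the 28 tested transporters, 6 were higher in VEC-positive cells, 4 were lower and 18 did not pass an adjusted p of 0.05. Across all 14032 tested genes 20.9% were called higher, 16.4% lower and 37.3% in either direction, so the 35.7% of transporters called lay near the share of all genes. The higher genes were *Slc7a2*, *Slc6a6*, *Slc6a8*, *Slc1a5*, *Slc1a4* and *Slc36a4*, and the lower genes were *Slc38a1*, *Slc43a1*, *Slc7a6* and *Slc7a7*. A change of at least 2-fold was called for *Slc7a2* and *Slc6a6* among the higher genes and for *Slc38a1* and *Slc43a1* among the lower genes, where 6.88% and 6.99% of all tested genes were called at that size. The 3 VEC-positive and 3 VEC-null libraries did not overlap for 12 of the 28 transporters, and for 50% of all tested genes. With VEC-positive set over VEC-null, the median log2 fold change was -0.19 over the transporters and -0.012 over all tested genes. *Slc7a2* and *Slc38a1* passed the filter only through the group in which they were high. Without VEC-null 3, 6 transporters were higher and 8 lower, and the share of all genes called was 51.0%.

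**Figure D1:**
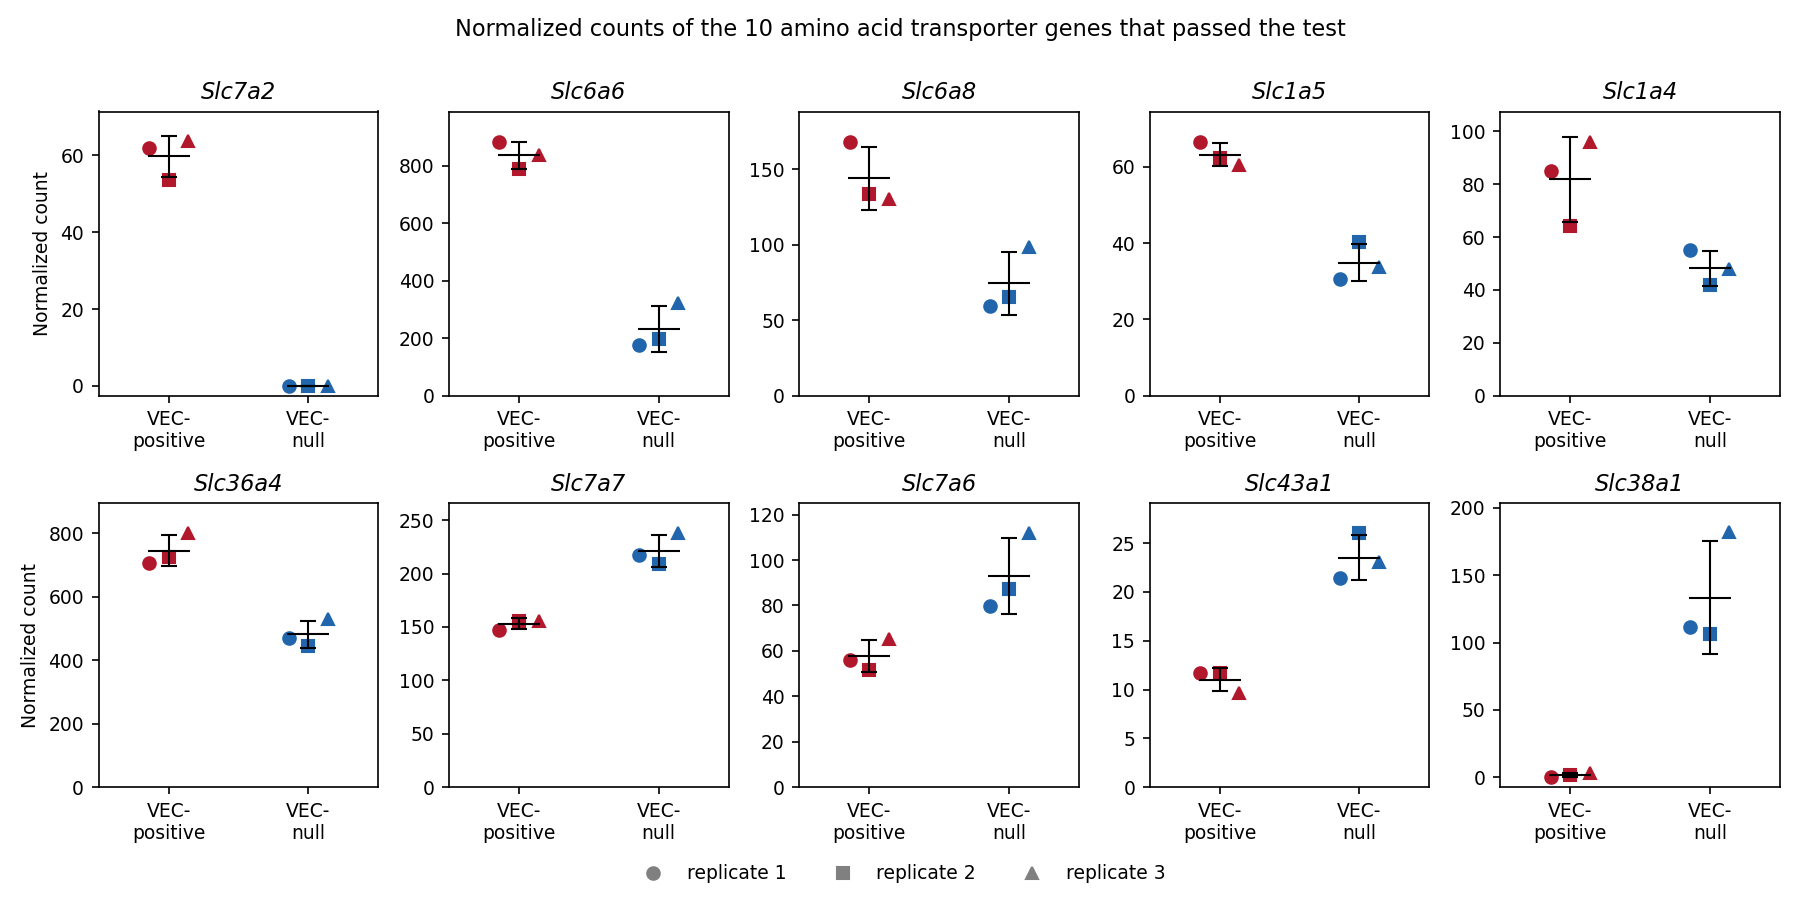
Normalized count (vertical axis) of the 10 amino acid transporter genes that passed the test, in 3 VEC-positive libraries (red) and 3 VEC-null libraries (blue); symbols mark the library number, horizontal lines the mean and bars the SD. The groups do not overlap in any panel, *Slc7a2* is at 0 in the 3 VEC-null libraries, and *Slc38a1* has at most 3.23 in the VEC-positive libraries.

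The cationic carriers *Slc7a1* and *Slc7a2* bring arginine, lysine and ornithine into cells. *Slc7a2* (chromosome 8 of mm10, 40862396 to 40922308) had normalized counts of 61.8, 53.6 and 63.8 in VEC-positive libraries, against 0 in each of the 3 VEC-null libraries. It therefore had RNA in every VEC-positive library and no read in any VEC-null library. Its 187 reads in VEC-positive cells, set against a floor of 3 reads over the VEC-null group, gave a 60.9-fold ratio. The 95% counting interval for 187 reads against 0, which also covers the error of the 187 reads, began lower, at 49.0-fold. In limma the log2 fold change was 5.92 (SE 0.37, adjusted p = 1.6e-05), and it moved with the pseudocount, to 6.91 at 0.5 and 3.69 at 5. *Slc7a2* entered that test only through the VEC-positive group, so the p-value is no separate support. Exons of *Slc7a2* overlap *Gm26584*, a noncoding RNA on the opposite strand, and the sources used here do not say whether reads were counted by strand. *Gm26584* had 63.0, 68.2 and 78.3 in VEC-positive libraries and 85.7, 70.1 and 39.9 in VEC-null libraries, and did not pass the test (adjusted p = 0.687). *Slc7a1*, the housekeeping cationic carrier, had 422, 330 and 401 in VEC-positive libraries and 441, 435 and 492 in VEC-null libraries. Its groups did not overlap, but the log2 fold change of -0.25 (SE 0.11) did not pass (adjusted p = 0.123). With every library scaled to the same total, which moved the median of all tested genes to -0.32, *Slc7a1* was called lower (-0.56, adjusted p = 0.00767).

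The pair *Slc7a6* and *Slc7a7* encodes light chains that export cationic amino acids in exchange for sodium and neutral ones. Both were lower in VEC-positive cells. *Slc7a7* had 147, 156 and 156 normalized counts in VEC-positive libraries and 217, 209 and 238 in VEC-null libraries, a log2 fold change of -0.53 (SE 0.11, adjusted p = 0.00594). It shares exon bases with *Oxa1l* on the opposite strand, which had 280, 282 and 304 in VEC-positive libraries and 256, 286 and 301 in VEC-null libraries (adjusted p = 0.78). *Slc7a6* had 56.0, 51.6 and 65.4 in VEC-positive libraries and 79.6, 87.4 and 112 in VEC-null libraries (log2 fold change -0.67, SE 0.19, adjusted p = 0.0252). Leaving out VEC-positive 1, VEC-positive 2 or VEC-null 2 ended this call, with adjusted p = 0.0803, 0.0942 and 0.0574. *Slc7a6os* was at 146 ± 4.64 in VEC-positive cells and 143 ± 12.5 in VEC-null cells (SD, n = 3 each) and did not pass.

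The shared heavy chain *Slc3a2* was measured at 355 ± 37.4 in VEC-positive cells and 344 ± 25.7 in VEC-null cells (SD, n = 3 each), with an adjusted p of 0.779. The light chain of the large neutral carrier, *Slc7a5*, had 22.0 ± 3.07 in VEC-positive cells and 28.5 ± 4.81 in VEC-null cells (SD, n = 3 each) and did not pass either (adjusted p = 0.323). *Slc7a11*, the light chain of the cystine and glutamate exchanger, had 59.5, 48.7 and 64.6 in VEC-positive libraries and 39.8, 59.9 and 118 in VEC-null libraries. VEC-null 3 held the highest *Slc7a11* value and VEC-null 1 the lowest, so the VEC-positive range lay inside the VEC-null range (adjusted p = 0.706). The heavy chain *Slc3a1*, partner of carriers of kidney and gut, was below the filter, with at most 3.23.

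The sodium-coupled neutral carriers of the Slc38 family take up glutamine and alanine. *Slc38a1* (chromosome 15, 96571418 to 96642913) had 0, 1.95 and 3.23 normalized counts in VEC-positive libraries, against 112, 106 and 182 in VEC-null libraries. It was nearly absent from VEC-positive libraries, with 6 reads in all against 413 in VEC-null libraries. The ratio of VEC-null over VEC-positive, in normalized terms, was 70.5 with a 95% counting interval of 32.1 to 193. In limma the log2 fold change was -5.81 (SE 0.54, adjusted p = 0.000115), and it moved with the pseudocount, to -6.29 at 0.5 and -4.35 at 5. *Slc38a1* entered that test only through the VEC-null group, so the p-value is no separate support. *Slc38a2*, the family member that cells induce on amino acid shortage, lies beside it on chromosome 15 (96687392 to 96699730). *Slc38a2* had 875, 909 and 758 in VEC-positive libraries and 670, 748 and 861 in VEC-null libraries, overlapping, and did not pass (log2 fold change 0.16, SE 0.11, adjusted p = 0.309).

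The most abundant Slc38 members are less studied. *Slc38a10* had 1166, 1122 and 1071 in VEC-positive libraries and 1171, 1143 and 1118 in VEC-null libraries (adjusted p = 0.754). *Slc38a6* had 938, 763 and 929 in VEC-positive libraries and 988, 1114 and 976 in VEC-null libraries, with no overlap but no call (log2 fold change -0.23, SE 0.10, adjusted p = 0.119). At equal library totals both were called lower, at -0.34 for *Slc38a10* (adjusted p = 0.00709) and -0.54 for *Slc38a6* (adjusted p = 0.007). The lysosomal members *Slc38a7*, a glutamine and asparagine exporter, and *Slc38a9*, the arginine sensor of mTORC1, had overlapping groups. *Slc38a9* stood at 117 ± 2.79 in VEC-positive cells and 103 ± 31.4 in VEC-null cells (SD, n = 3 each, adjusted p = 0.437).

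The Slc1 family holds the neutral exchangers *Slc1a4* (alanine, serine and cysteine) and *Slc1a5* (glutamine) beside the glutamate carriers. Both exchangers were higher in VEC-positive cells. *Slc1a5* had 66.5, 62.3 and 60.5 normalized counts in VEC-positive libraries and 30.6, 40.2 and 33.7 in VEC-null libraries (log2 fold change 0.85, SE 0.19, adjusted p = 0.00999), and its call ended at equal library totals (0.54, adjusted p = 0.0518). *Slc1a4* had 85.1, 64.3 and 96.0 in VEC-positive libraries and 55.1, 41.7 and 47.9 in VEC-null libraries (log2 fold change 0.74, SE 0.21, adjusted p = 0.026). That call ended without VEC-positive 1 (adjusted p = 0.0922), VEC-positive 3 (0.105) or VEC-null 2 (0.0835), and at equal totals with mitochondrial genes (0.137) or without them (0.0591). *Slc1a2*, the main glutamate carrier of astrocytes, had 171, 100 and 140 in VEC-positive libraries and 266, 264 and 110 in VEC-null libraries, and VEC-null 3 alone lay inside the VEC-positive range (adjusted p = 0.252). *Slc1a1*, *Slc1a3* and *Slc1a7*, the other glutamate carriers measured, were below the filter with at most 5.84.

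Promoter windows were searched for the letters TGATGNAA, the core of the element through which the transcription factor ATF4 acts on amino acid genes, because ATF4 is the known regulator of several of these carriers. Windows run from 250 bases before to 50 bases after each start in RefSeq on GRCm38.p6, the assembly of mm10, and 21 of the 28 tested transporters matched. Several genes have more than 1 start, and these 21 have 31 windows. The tested genes *Slc7a2*, *Slc6a6*, *Slc6a8*, *Slc1a5*, *Slc38a1*, *Slc7a5* and *Slc7a13* had no window and were not searched. On either strand the core occurred in 4 of the 31 windows, which belong to *Slc1a4*, *Slc7a7* and *Slc7a11*, and in 3.97% of the 32851 windows of all genes. Counted by gene, it was in 3 of the 21 transporters and in 4.51% of 27025 genes. Their sequences are shown 5′ to 3′ with the core, or its reverse complement, in capitals. The *Slc1a4* window is chr11:20332664-20332963 on the minus strand, that of *Slc7a7* chr14:54417895-54418194 on the minus strand, and that of *Slc7a11* chr3:50443564-50443863 on the minus strand.
Slc1a4: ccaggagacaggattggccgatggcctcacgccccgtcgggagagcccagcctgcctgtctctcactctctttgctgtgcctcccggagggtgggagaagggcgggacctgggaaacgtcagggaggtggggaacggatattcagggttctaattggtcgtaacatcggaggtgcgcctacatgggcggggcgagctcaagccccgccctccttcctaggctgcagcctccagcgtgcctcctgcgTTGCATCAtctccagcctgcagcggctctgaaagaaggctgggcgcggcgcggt
Slc7a7: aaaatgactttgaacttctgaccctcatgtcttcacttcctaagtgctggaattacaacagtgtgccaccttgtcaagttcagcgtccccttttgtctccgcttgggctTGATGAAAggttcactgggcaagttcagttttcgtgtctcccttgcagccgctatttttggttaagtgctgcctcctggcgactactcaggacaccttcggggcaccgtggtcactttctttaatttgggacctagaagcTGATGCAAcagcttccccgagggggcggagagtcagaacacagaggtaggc
Slc7a11: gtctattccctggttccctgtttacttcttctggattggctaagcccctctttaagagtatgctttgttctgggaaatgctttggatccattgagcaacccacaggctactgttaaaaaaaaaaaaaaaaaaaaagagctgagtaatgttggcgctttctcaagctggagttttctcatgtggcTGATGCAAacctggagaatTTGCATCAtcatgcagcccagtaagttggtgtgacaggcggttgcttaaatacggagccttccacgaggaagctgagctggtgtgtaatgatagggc
The core began 4 bases before the start in *Slc1a4*, 141 and 1 bases before it in *Slc7a7*, and 66 and 47 bases before it in *Slc7a11*. Of these genes *Slc1a4* was higher in VEC-positive cells, *Slc7a7* was lower and *Slc7a11* did not pass. Whether the core goes with a direction was not tested, and several called transporters had no window. *Slc7a7* has 5 RefSeq starts, and the core was in the windows of 2 of them, the one shown and one that overlaps it. The letters TGTTTAC, a FOXO motif, were in 1 of the 31 windows, that of *Slc7a11*, and in 3.65% of all windows. By gene that is 1 of 21 transporters and 4.05% of all genes. The letters ATCAAAG, a TCF motif, were in 4 of the 31 windows and in 3.73% of all windows. By gene that is 4 of 21 transporters (*Slc1a2*, *Slc38a10*, *Slc38a9* and *Slc7a1*) and 4.29% of all genes. In these transporter windows no match of either motif overlapped a match of TGATGNAA. A match is a description of the sequence only.

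The Slc6 family couples uptake to sodium and chloride. *Slc6a6*, the taurine carrier (chromosome 6, 91684053 to 91759066), had 883, 789 and 838 normalized counts in VEC-positive libraries, against 176, 198 and 324 in VEC-null libraries. All VEC-positive values were above the VEC-null values, of which VEC-null 3 was the highest. The gene was 3.72-fold higher in VEC-positive cells (log2 fold change 1.89, SE 0.21, adjusted p = 0.000254), and without VEC-null 3 the log2 fold change was 2.16 (SE 0.089). Its exons overlap *Gm44981* on the opposite strand, which was not analysed here. *Slc6a8*, the creatine carrier, had 168, 133 and 130 in VEC-positive libraries and 59.7, 65.4 and 98.4 in VEC-null libraries (log2 fold change 0.96, SE 0.22, adjusted p = 0.0093). *Slc6a9*, a glycine carrier, and *Slc6a17*, a vesicle carrier of neurons, were at low counts and overlapped between groups. *Slc6a17* had the lowest mean over the 6 libraries of the transporters inside the filter, with 9.33, 7.79 and 13.7 in VEC-positive libraries and 9.18, 15.8 and 10.6 in VEC-null libraries. *Slc7a8*, a light chain for neutral amino acids, lay just outside it with 4.67, 4.87 and 8.88 in VEC-positive libraries and 6.12, 11.0 and 2.66 in VEC-null libraries.

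Carriers of the Slc36 family work largely at lysosomes and endosomes. *Slc36a4*, a carrier of proline and tryptophan, had 707, 726 and 799 normalized counts in VEC-positive libraries and 470, 444 and 528 in VEC-null libraries. It was 1.55-fold higher in VEC-positive cells (log2 fold change 0.63, SE 0.095, adjusted p = 0.00134), with the lowest VEC-positive library above the highest VEC-null library. *Slc36a1* was at 95.6 ± 26.7 in VEC-positive cells and 115 ± 15.8 in VEC-null cells (SD, n = 3 each) and did not pass. The Slc43 carriers let branched-chain amino acids, phenylalanine and methionine pass without an ion. *Slc43a1* had 11.7, 11.7 and 9.68 in VEC-positive libraries and 21.4, 26.0 and 23.1 in VEC-null libraries (log2 fold change -1.03, SE 0.28, adjusted p = 0.0213). The *Slc43a1* call was lost in 7 of 17 alternatives. These included DESeq2 (adjusted p = 0.0967) and leaving out any VEC-positive library (0.0512 to 0.0704) or VEC-null 2 (0.0788). *Slc43a2* had 1067, 911 and 1093 in VEC-positive libraries and 959, 1014 and 871 in VEC-null libraries, and its groups overlapped (adjusted p = 0.419).

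**Figure D2:**
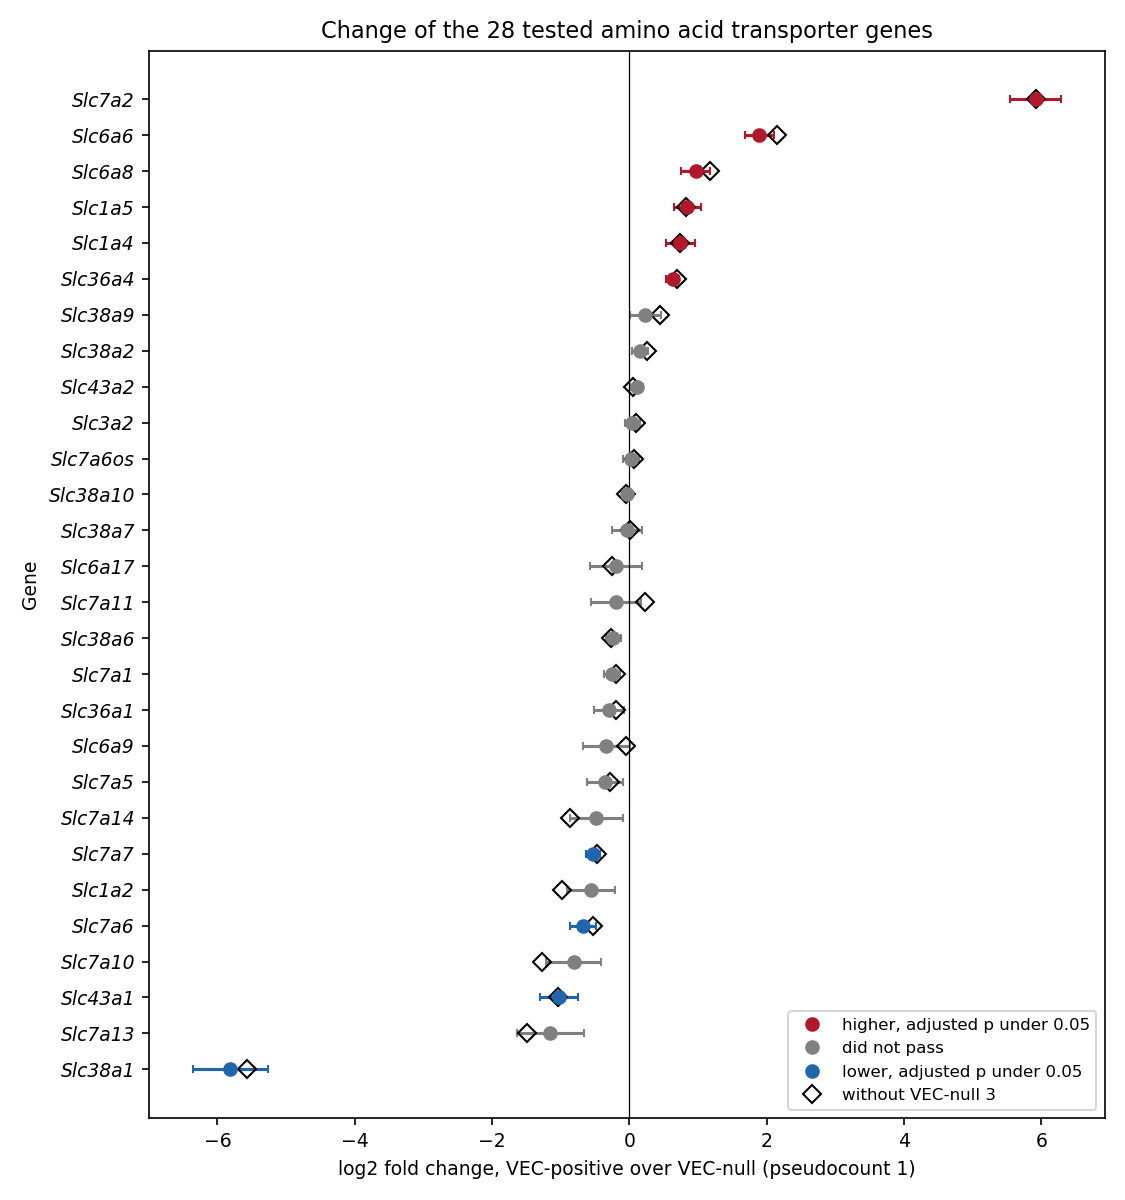
Log2 fold change, VEC-positive relative to VEC-null cells (horizontal axis, pseudocount 1), of the 28 tested amino acid transporter genes, with SE bars; red is higher and blue lower at an adjusted p under 0.05, grey did not pass, and open diamonds leave out VEC-null 3. *Slc7a2* (5.92) and *Slc38a1* (-5.81) lie far outside the other genes, and the diamonds of *Slc7a13*, *Slc7a10*, *Slc1a2* and *Slc7a14* lie further below 0 than their points.

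A group of low transporters differed from the others in VEC-null 3. *Slc7a10*, a carrier of small neutral amino acids, had 23.3, 23.4 and 32.3 normalized counts in VEC-positive libraries and 64.3, 64.6 and 23.9 in VEC-null libraries. *Slc7a13*, a carrier of acidic amino acids in kidney, had 5.83, 14.6 and 18.6 in VEC-positive libraries and 29.1, 41.7 and 16.8 in VEC-null libraries. *Slc7a14*, a relative of the cationic carriers, had 22.2, 32.1 and 20.2 in VEC-positive libraries and 41.3, 49.6 and 19.5 in VEC-null libraries. In each of these, as in *Slc1a2*, VEC-null 1 and 2 lay above all VEC-positive libraries and VEC-null 3 did not. With the 3 VEC-null libraries none of the 4 genes passed (adjusted p = 0.102 to 0.36). Without VEC-null 3 all 4 were called lower, with log2 fold changes of -1.28 for *Slc7a10* (SE 0.25, adjusted p = 0.00267), -1.49 for *Slc7a13* (SE 0.47, adjusted p = 0.028), -0.87 for *Slc7a14* (SE 0.29, adjusted p = 0.0321) and -0.98 for *Slc1a2* (SE 0.20, adjusted p = 0.00348). The 4 genes were grouped by their values in VEC-null 3, so these calls follow from the grouping and are no separate test. Without VEC-null 3, 51.0% of all tested genes were called, against 37.3% with it. Each call of the complete data stayed without that library.

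Levels were compared between genes per kilobase of annotated exon. In VEC-positive cells *Slc38a10* was highest at 174 ± 7.45 normalized counts per kilobase (SD, n = 3). Next came *Slc36a4* at 114 ± 7.44, *Slc38a6* at 113 ± 12.7, *Slc43a2* at 102 ± 9.81, *Slc3a2* at 101 ± 10.6, *Slc6a6* at 98.9 ± 5.55 and *Slc38a2* at 95.9 ± 8.97, and each of these neighbours differed by less than the larger of their SDs. *Slc7a7* followed at 46.1 ± 1.54. In VEC-null cells *Slc38a10* was again highest at 178 ± 4.09 and *Slc38a6* came next at 132 ± 9.83, followed by *Slc3a2* at 97.4 ± 7.28, *Slc43a2* at 94.4 ± 7.22 and *Slc38a2* at 86.0 ± 10.9. *Slc6a6* held place 6 of 28 in VEC-positive cells and place 10 in VEC-null cells, where it had 27.5 ± 9.43 per kilobase. *Slc36a4* held place 2 in VEC-positive cells and place 6 in VEC-null cells. All transporters measured summed to 7131 to 7795 normalized counts in VEC-positive libraries and 6682 to 7129 in VEC-null libraries. As a share of all reads they took 0.0598% to 0.0696% in VEC-positive libraries and 0.0723% to 0.076% in VEC-null libraries, which did not overlap and ran opposite to the sums. As a share of reads without mitochondrial genes they took 0.0789% to 0.0856% in VEC-positive libraries and 0.08% to 0.0893% in VEC-null libraries, which overlapped.

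**Figure D3:**
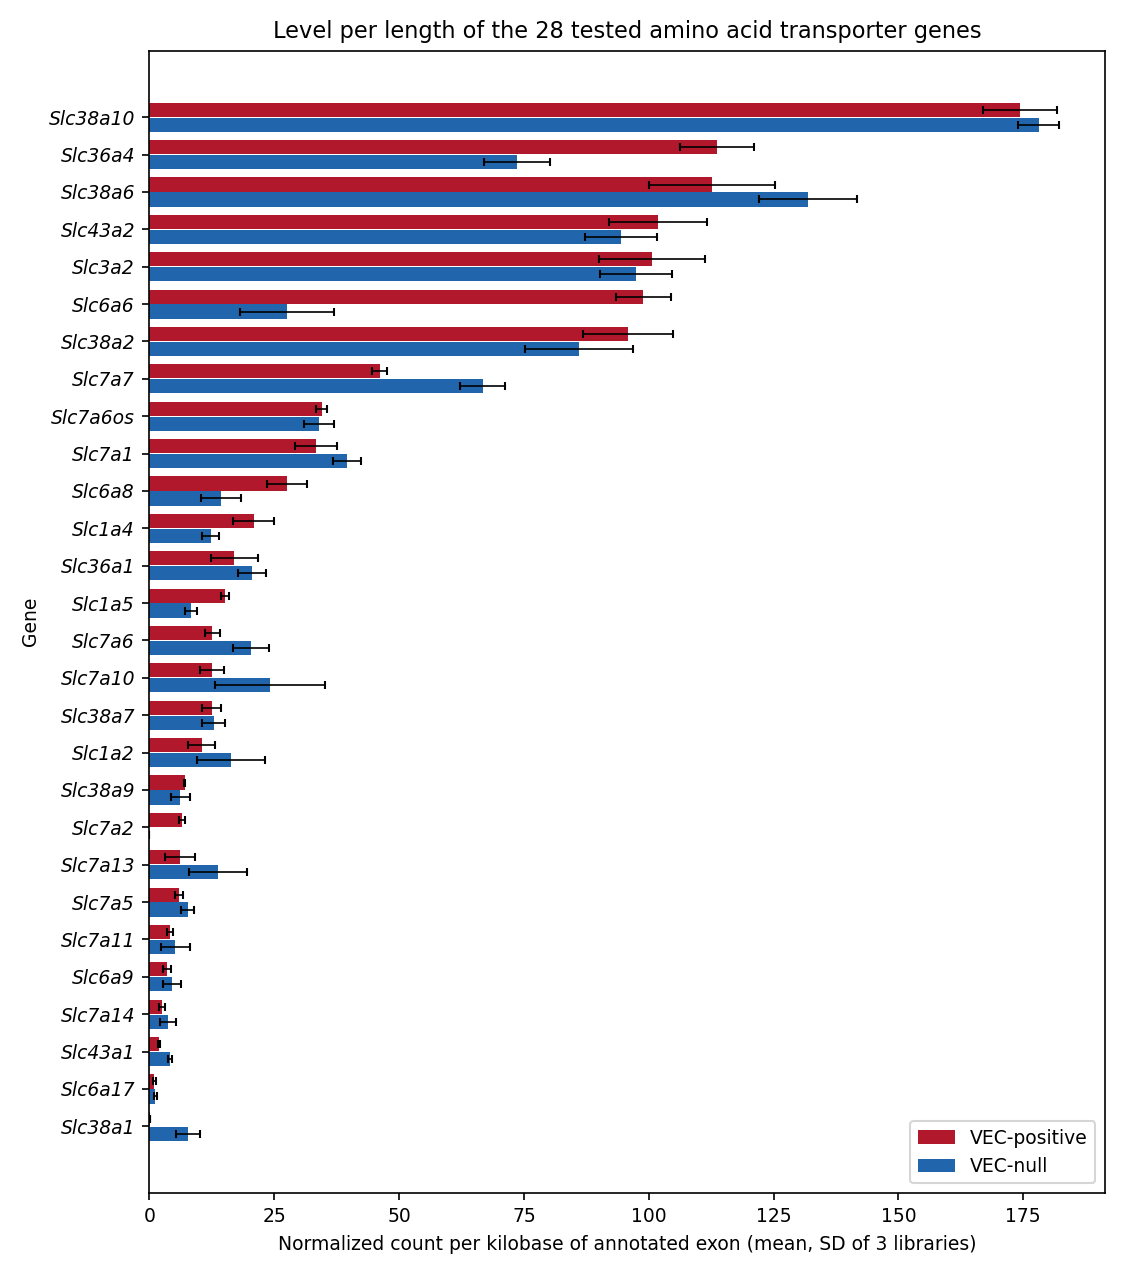
Mean normalized count per kilobase of annotated exon (horizontal axis) of the 28 tested amino acid transporter genes in VEC-positive (red) and VEC-null (blue) cells; bars are means and error bars the SD of 3 libraries. *Slc38a10* is highest in both groups, at 174 in VEC-positive and 178 in VEC-null cells, and *Slc6a6* stands at 98.9 in VEC-positive and 27.5 in VEC-null cells.

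Enzymes that make or break down amino acids stood beside the carriers with 4 of 30 tested genes higher and 8 lower (40.0% called, against 37.3% of all genes). *Glul*, glutamine synthetase, had 1793, 1736 and 1829 normalized counts in VEC-positive libraries and 369, 376 and 377 in VEC-null libraries (log2 fold change 2.25, SE 0.068, adjusted p = 5.3e-07). Among the tested glutamine carriers named above *Slc1a5* was higher, *Slc38a1* was lower, and *Slc38a2* and *Slc38a7* did not pass. *Ass1*, an enzyme of arginine synthesis, had 220, 244 and 225 in VEC-positive libraries and 97.9, 100 and 106 in VEC-null libraries (log2 fold change 1.17, SE 0.11). Among the carriers of arginine *Slc7a2* was higher, *Slc7a6* and *Slc7a7* were lower and *Slc7a1* did not pass. *Csad*, an enzyme of taurine synthesis, had 238, 193 and 249 in VEC-positive libraries and 109, 116 and 118 in VEC-null libraries (log2 fold change 0.97, SE 0.13). The taurine carrier *Slc6a6* was also higher. *Bcat1*, the cytosolic transaminase of branched-chain amino acids, was lower at 37.9 ± 0.693 in VEC-positive cells and 101 ± 22.4 in VEC-null cells (SD, n = 3 each, adjusted p = 0.00137). *Got2*, a mitochondrial aspartate transaminase, and *Dbt*, of the branched-chain complex, did not pass.

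Of 20 cytosolic tRNA synthetases, which load amino acids onto tRNAs, 1 was higher in VEC-positive cells and 11 were lower. That is 60.0% called, against 37.3% of all tested genes. Their median log2 fold change was -0.36, against -0.012 over all tested genes. *Farsb* stood at -0.78 (SE 0.15), *Eprs* at -0.61 (SE 0.097), *Vars* at -0.54 (SE 0.093) and *Iars* at -0.51 (SE 0.10), each lower in VEC-positive cells. *Eprs* had 1014, 1095 and 1029 normalized counts in VEC-positive libraries and 1513, 1473 and 1834 in VEC-null libraries. *Mars*, the methionine enzyme, was the member that was higher (0.47). *Sars* and *Rars* did not pass. The number of lower synthetases was 7 in limma without a trend and 7 without VEC-positive 3, where lower calls over all genes numbered 2071 and 1679 in place of 2304.

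Of 19 tested genes of the response to amino acid shortage through the kinase GCN2 and ATF4, 5 were higher and 2 lower. That is 36.8% called, near the 37.3% of all tested genes. *Vldlr*, a lipoprotein receptor, had 941, 967 and 978 in VEC-positive libraries and 65.8, 81.1 and 147 in VEC-null libraries (log2 fold change 3.37, SE 0.26), and it carries no amino acid. *Sqstm1*, an autophagy receptor, was higher (0.65, SE 0.064), while the stress transcription factors *Ddit3* (-0.99, SE 0.25) and *Atf3* (-0.93, SE 0.18) were lower. *Ddit3* lost its call without VEC-positive 1 (adjusted p = 0.052) or VEC-positive 3 (0.0541). *Atf4* itself was higher at 0.31. *Ddit4* and *Eif2s1* did not pass. Equal library totals gave 3 higher and 8 lower in this list, where all tested genes gave 1566 higher and 4960 lower in place of 2927 and 2304.

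Genes of amino acid sensing through mTORC1 were higher in 6 and lower in 6 of 36 tested (33.3% called, against 37.3% of all genes). *Tfeb*, the transcription factor of lysosomal genes, had 106, 110 and 109 in VEC-positive libraries and 50.5, 27.6 and 27.5 in VEC-null libraries (log2 fold change 1.66, SE 0.25, adjusted p = 0.00149). *Sesn3*, of the sestrin family, was lower (-1.08, SE 0.12), as was *Tsc1* (-0.49, SE 0.094), a brake on mTORC1. *Fnip1*, a partner of folliculin, was higher (0.74, SE 0.16). *Rragc* and *Rraga*, which encode GTPases that bring mTORC1 to lysosomes, did not pass. The number higher in this list was 11 without VEC-null 3, where higher calls over all genes numbered 3800 in place of 2927. It was 2 without VEC-positive 2 or VEC-null 2, where all genes gave 2111 and 2320.

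Among amino acid carriers of other families 3 of 11 tested were higher in VEC-positive cells and none was lower (27.3% called, against 37.3% of all genes). *Mfsd12*, which brings cysteine into lysosomes and melanosomes, was at 206 ± 17.8 in VEC-positive cells and 117 ± 2.66 in VEC-null cells (SD, n = 3 each, log2 fold change 0.81). *Slc25a12*, a mitochondrial aspartate and glutamate carrier, was higher at 0.51 (SE 0.12), which was lost at equal library totals (0.20, adjusted p = 0.212) and without VEC-positive 1 (adjusted p = 0.0505). Its paralogue *Slc25a13*, named after its values were seen, had 22.2, 18.5 and 19.4 in VEC-positive libraries and 0 in each VEC-null library. *Slc25a13* passed the filter only through the group in which it was high, and its counts were low. *Slc25a44* and *Ctns*, the lysosomal cystine exporter, did not pass.

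**Figure D4:**
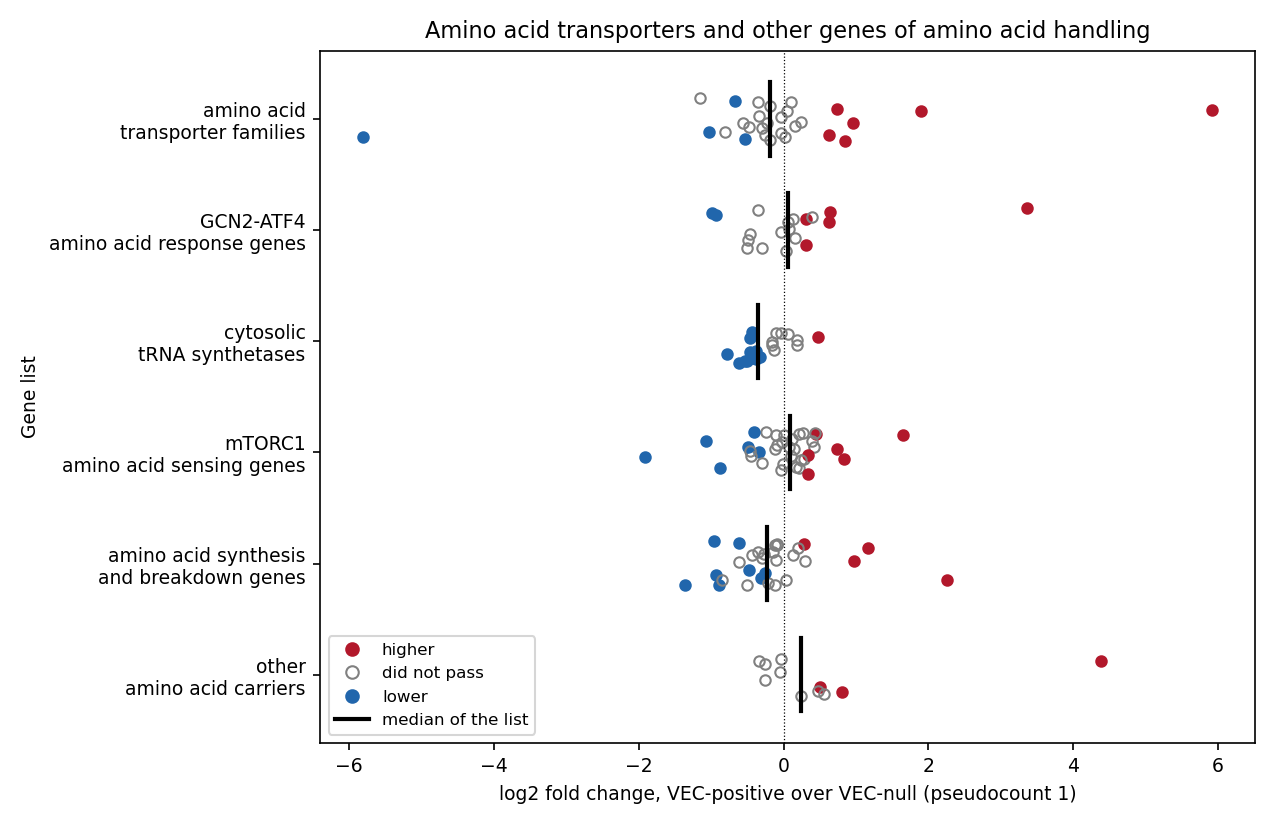
Log2 fold change, VEC-positive relative to VEC-null cells (horizontal axis, pseudocount 1), of each tested gene of the amino acid transporter families and of 5 other lists of amino acid genes (rows); red is higher, blue lower, open circles did not pass, and the black bar is the median of the list. The median of the tRNA synthetases (-0.36) lies furthest below 0 of the 6 rows.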

How the data were processed

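Total RNA of 6 libraries was grouped by the labels. Per the labels, the authors' tools were Trim Galore, TopHat2 2.1.1 and DESeq2 1.14, with the mm10 build. The sources used here do not state the counting program, its strand setting or its annotation. The deposited signal values are gene counts that the authors divided by 1 size factor per library: dividing them by the value of 1 read in that library gave whole reads for 100% of values (within 0.01). Only genes above 0 in at least 1 library are listed. Symbols and mm10 coordinates came from GENCODE M21 (23908 of 24080 identifiers).

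Genes with at least 10 in 3 libraries were tested in limma 3.58.1 under R 4.3.3, on log2(value + 1) and with a trended prior variance. Tests were two-sided, and p-values were adjusted by Benjamini-Hochberg over all 14032 genes. The script was tested on simulated data. Counting intervals (95%) and the floor of 3 reads over a group cover counting error only, since PCR duplicates count as reads. Members and lists were chosen with earlier results of these data known. Values per library were given for members changed at least 2-fold or with a mean of at least 500, and further members were added. Of each other list the rule drew up to 4 called genes with a mean of at least 50 and 2 that did not pass. The 18 alternatives, set with the design, were pseudocounts of 0.5 and 5, no filter, a filter of 50, 3 other scalings, limma without a trend, voom, recovered reads in edgeR 4.0.16 and in DESeq2 1.42.0, a replicate block, and leaving out each library. Figures were drawn with matplotlib 3.10.9.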

Additional observations from a re-analysis of the deposited data

How the results depend on the processing

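Of the 10 called transporters 6 kept their call in every alternative (*Slc7a2*, *Slc6a6*, *Slc6a8*, *Slc36a4*, *Slc38a1* and *Slc7a7*), and 11 of the 18 that did not pass stayed so. At equal library totals, 4 transporters were higher and 8 lower, with a median log2 fold change of -0.49 where all genes had -0.32, and all tested genes gave 1566 higher and 4960 lower. There the counts were 3 higher and 8 lower for the GCN2-ATF4 list, 0 higher and 17 lower for tRNA synthetases, 1 higher for mTORC1 sensing genes, 19 lower for synthesis and breakdown genes and 1 lower for other carriers, and *Ddit4* turned to -0.25. Equal totals without mitochondrial genes moved the median of all genes to -0.16 and gave 5 transporters higher and 6 lower, 3 higher and 4 lower in the GCN2-ATF4 list and 3 higher among mTORC1 sensing genes. At least 2-fold lower was 1 transporter with a pseudocount of 5, no filter, a filter of 50 and DESeq2. Limma without a trend gave 7 tRNA synthetases and 5 synthesis and breakdown genes lower. Leaving out 1 library at a time gave 5 to 6 transporters higher and 2 to 8 lower, of which 1 to 4 at least 2-fold, while all tested genes gave 2111 to 3800 higher and 1585 to 3359 lower. In that series the GCN2-ATF4 list had 3 to 6 higher and 1 to 3 lower, tRNA synthetases 7 to 11 lower, mTORC1 sensing genes 2 to 11 higher, and synthesis and breakdown genes 3 to 9 lower. The cause of these shifts was not tested.

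Same-numbered libraries did not deviate together (correlations of 0.0763, -0.333 and -0.295). Deviations were taken from means of 3 libraries, and VEC-null 3 stood apart, so this cannot decide whether the numbers pair the libraries. With the replicate number as a block, 6 transporters were higher and 3 lower, 1 of them at least 2-fold, against 2400 and 1744 of all genes, and the block gave 3 higher in the GCN2-ATF4 list, 3 higher among mTORC1 sensing genes and 4 lower among synthesis and breakdown genes. None of the VEC-positive libraries correlated best with its own number. Depth limits the 13 transporters below the filter, which were not tested. Among them *Slc1a3* had 15 reads in VEC-positive and 3 in VEC-null libraries, a normalized ratio of 4.89 (95% counting interval 1.38 to 26.3), and for the other 12 that interval held 1.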
